A study of Mus musculus with 18 samples.

Results

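The comparison set J1 embryonic stem (ES) cells, an established mouse line, against mouse embryonic fibroblasts (MEFs), the differentiated cells from which the study's reprogrammed lines were made. Its members were chosen by their titles alone: 3 arrays of J1 ES cells and 3 arrays of CD1 MEFs, 6 of the 18 arrays in the series. The MEFs were primary cells of the CD1 stock at low passage, grown in DMEM with fetal bovine serum, and their protocol names no feeders. J1 cells were grown with LIF on feeder cells whose division had been arrested. Neither group carried introduced reprogramming factors, and neither was kept under the puromycin selection used for the reprogrammed lines. The other 12 arrays hold 4 groups of 3: a partially reprogrammed induced pluripotent stem (iPS) line (EOS3F-24), the same line after treatment with 2 kinase inhibitors (2i), and 2 fully reprogrammed lines (EOS3F-28 and EOS3F-29). All of these were made with retroviral Oct4, Klf4 and Sox2 and grown on feeders. J1 is 1 line from another mouse strain than CD1, so strain, feeders, LIF, medium and cell type cannot be told apart in this comparison. The labels do not say whether the 3 arrays of a group came from separate cultures. The p-values therefore rest on variation among these arrays alone, part or all of which may be technical.

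ES cells are the cultured counterpart of the pluripotent cells of the early embryo. They keep their state through a small network of transcription factors led by Oct4 (the product of Pou5f1), Sox2 and Nanog, which activate one another's genes, and through LIF signalling to STAT3 in mouse. They grow as tight epithelial colonies, divide quickly and spend much of the cycle in DNA synthesis. Fibroblasts are mesenchymal cells that spread on a substrate, build actin stress fibres, and secrete and remodel the collagen-rich extracellular matrix.

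Values are log2 array values, so a difference of 1 is a 2-fold change. Each difference below is the J1 mean minus the MEF mean with the standard error (SE) of a linear model over all 18 arrays. A gene is called where its Benjamini-Hochberg adjusted p from limma is under 0.05. Within groups the arrays correlated at 0.972 to 0.989 (J1) and 0.981 to 0.988 (MEF) over all genes tested, and between groups at 0.875 to 0.92. The median SD over genes was 0.147 in J1 cells and 0.14 in MEFs.

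J1 replicate 1 lay nearer the MEFs than the other J1 arrays, and replicate 1 of every other feeder-grown group was shifted in the same way. J1 replicate 1 was the highest of the 3 J1 arrays for 920 of the 1264 genes called at least 2-fold lower in J1 cells (72.8%), against 6517 of all 19937 genes (32.7%). Among 160 genes of 8 lists of matrix, contractile, adhesion and mesenchymal genes, 131 were called lower, and this array was the highest J1 array for 111 of those (84.7%). Its mean correlation with the MEF arrays was 0.911, beside 0.883 and 0.893 for the other 2 arrays. In the other feeder-grown groups replicate 1 was the highest of its group for 110 to 125 of the same 131 genes (84% to 95.4%), against 52 (39.7%) in MEFs. Deviations from the group mean over all genes correlated between replicates 1 at 0.208 to 0.579 and between replicates 2 at 0.14 to 0.639 over the 10 pairs of feeder-grown groups, and between replicates 3 at -0.115 to 0.223. Between MEFs and those groups they correlated at -0.137 to 0.172. The labels do not say what same-numbered arrays share. The cause was not tested, and in bulk RNA fewer cells of a type and less RNA per cell cannot be told apart. Without this array, 7462 genes were called in place of 7585. With the replicate number as a block in the fit of all 18 arrays, an alternative chosen after seeing the data, 8084 were called. Calls that changed without this array are given beside the results they touch.

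Of the 19937 genes, 7585 (38%) were called, 4104 (20.6%) higher and 3481 (17.5%) lower in J1 cells. At least a 2-fold difference was seen for 997 of the genes called higher (5% of all genes) and 1264 of those called lower (6.34%). The 3 J1 arrays lay wholly above the 3 MEF arrays for 5144 genes (25.8%) and wholly below for 4170 (20.9%). These shares are the background for the counts of list members that follow, but they depend on brightness. In the fit without genes under a mean of 6 in both groups, 1567 of 5048 genes were called higher and 1906 lower. For lists of brighter genes the shares over all genes are therefore too low a background. The median difference over all genes was 0.06. Centring each array on a list of housekeeping genes moved it to 0.20 and turned the split of calls into 5644 higher and 2656 lower. That of calls of at least 2-fold became 1339 higher and 1000 lower, so the balance of rises and falls depends on scaling. The housekeeping list itself differed between the groups, with 6 of 23 measured genes called higher, 8 lower and a median of -0.2, so this centring is not neutral. Renormalization by cyclic loess gave 3590 higher and 3952 lower, with 894 and 1371 of at least 2-fold. Large differences were few: 187 called genes were at least 4-fold higher and 262 at least 4-fold lower, and 25 were at least 16-fold higher against 6 lower.

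**Figure D1:**
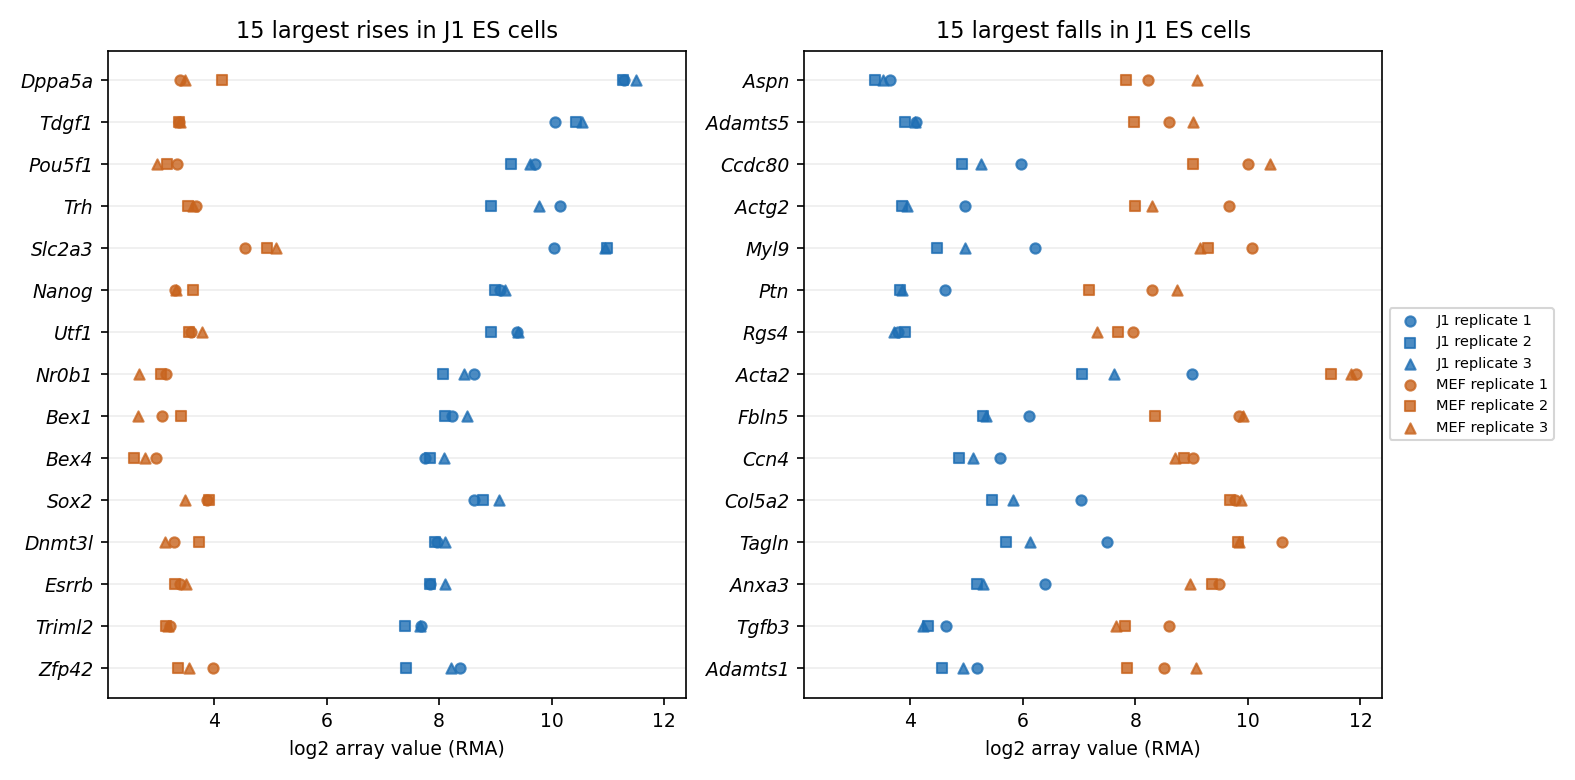
Log2 array values (horizontal axes) of the 15 genes with the largest rises (left) and falls (right) in J1 ES cells, 1 symbol per array. For Pou5f1 the J1 arrays lie between 9.28 and 9.70 and the MEF arrays between 2.98 and 3.35, and J1 replicate 1 (blue circle) is the highest J1 array for 14 of the 15 falls.

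The largest rises were led by genes of the pluripotent state. Dppa5a, an RNA-binding protein of early embryos and ES cells, stood at 11.29, 11.27 and 11.50 in the J1 arrays and 3.40, 4.15 and 3.49 in the MEF arrays, a difference of 7.67 ± 0.28. Tdgf1, the Nodal co-receptor Cripto, stood at 10.06, 10.43 and 10.54 in the J1 arrays and 3.38, 3.38 and 3.40 in the MEF arrays, a difference of 6.96 ± 0.35. Pou5f1, which encodes Oct4, was measured at 9.70, 9.28 and 9.62 in the J1 arrays and 3.35, 3.17 and 2.98 in the MEF arrays. Its difference of 6.37 ± 0.16 (adjusted p 3.33e-14 in limma) had the smallest p of all genes. In each of these 3 genes the groups were separated by several log2 units and the MEF arrays sat near the low end of the scale. Trh, the precursor of thyrotropin-releasing hormone, differed by 6.01 ± 0.24. Slc2a3, a high-affinity glucose transporter, differed by 5.80 ± 0.38. The X-linked adaptor genes Bex1 and Bex4 differed by 5.23 ± 0.24 and 5.11 ± 0.14.

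Among the pluripotency transcription factors, 18 of 19 measured genes were called higher, none lower, and the median difference was 3.01 against 0.06 for all genes. The 18 also lay wholly above the MEF arrays. Nanog, a homeodomain factor that sustains self-renewal, stood at 9.08, 9.0 and 9.18 in the J1 arrays and 3.31, 3.62 and 3.33 in the MEF arrays, a difference of 5.67 ± 0.23. Sox2, the partner of Oct4 on DNA, stood at 8.62, 8.78 and 9.06 in the J1 arrays and 3.87, 3.91 and 3.49 in the MEF arrays, a difference of 5.07 ± 0.20. No J1 array came near a MEF array in either gene. The orphan receptors Nr0b1 and Esrrb differed by 5.42 ± 0.19 and 4.51 ± 0.17. Tfcp2l1, Mycn, Sall4 and Tcl1, the last a cofactor of AKT signalling, differed by 3.63, 3.50, 3.31 and 3.01. The Krüppel-like factors differed by less than the list median: Klf5 by 2.05 ± 0.17, Klf2 by 1.93 ± 0.16 and Klf4 by 1.02 ± 0.16, each from a MEF mean of 5.53 to 5.74. Foxd3, a factor of the late epiblast and neural crest, was the one member not called (4.40 in J1 cells, 4.12 in MEFs).

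Zfp42, the zinc finger gene of the ES cell marker Rex1, stood at 8.38, 7.42 and 8.22 in the J1 arrays and 3.98, 3.36 and 3.55 in the MEF arrays, a difference of 4.38 ± 0.22. It lies on chromosome 8, whose genes as a group were shifted upward in J1 cells, as described with the chromosome medians. Its promoter was the only one of the 15 with a RefSeq promoter in this list to hold the octamer ATGCAAAT, the DNA element Oct4 recognises, on either strand. That octamer was in 1.77% of all 27025 promoters of the same length, in 3.07% of those of genes at least 2-fold higher in J1 cells and in 1.59% of those at least 2-fold lower. The sequence shows its place, in capitals on the opposite strand, in the 250 bases before the start site (RefSeq, GRCm38.p6, chr8:43307010-43307259, minus strand).
Zfp42: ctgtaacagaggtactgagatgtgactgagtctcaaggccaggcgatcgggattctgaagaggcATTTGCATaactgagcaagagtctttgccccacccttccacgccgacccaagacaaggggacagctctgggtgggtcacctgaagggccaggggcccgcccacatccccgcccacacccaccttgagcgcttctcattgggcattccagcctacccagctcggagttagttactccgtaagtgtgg
The match begins at position -186 from the start. A match to these letters is a description and does not show that Oct4 binds there.

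All 21 measured pluripotency-associated genes outside the transcription factor list were called higher, with a median difference of 3.26. Utf1, a chromatin-bound factor of ES cells, stood at 9.38, 8.92 and 9.41 in the J1 arrays and 3.6, 3.55 and 3.78 in the MEF arrays, a difference of 5.60 ± 0.16. Triml2, a tripartite motif gene on chromosome 8, differed by 4.39 ± 0.16. L1td1, an RNA-binding protein derived from a transposon, differed by 4.24 ± 0.25, and the paired chromatin factors Dppa2 and Dppa4 by 4.10 ± 0.19 and 3.32 ± 0.14. The let-7 antagonist Lin28a differed by 3.27 ± 0.16 and its paralog Lin28b by 1.79 ± 0.12. Dppa3, a maternal factor expressed in a part of ES cells, had the smallest rise (4.54 in J1 cells, 3.53 in MEFs, 1.01 ± 0.21).

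Of 10 genes of the later, primed epiblast, 7 were called higher and the list median was 0.45. Otx2, Cldn6, Dnmt3b and Zic2 rose by 2.48, 2.47, 2.30 and 1.42. Lef1, Pou3f1 and Sox3 were called at differences of 0.51, 0.39 and 0.38, from low levels in both groups. The call of Sox3 was also lost with the replicate block of the 6 arrays (adjusted p 0.0691 in limma), cyclic loess (0.33) and all probe sets tested (adjusted p 0.0687). The call of Lef1 was lost without J1 replicate 2 (0.49) or 3 (0.45) or MEF replicate 1 (0.43) or 3 (0.42), and that of Sox3 without J1 replicate 1 (0.39) or 2 (0.29) or MEF replicate 2 or 3 (0.35 each).

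**Figure D2:**
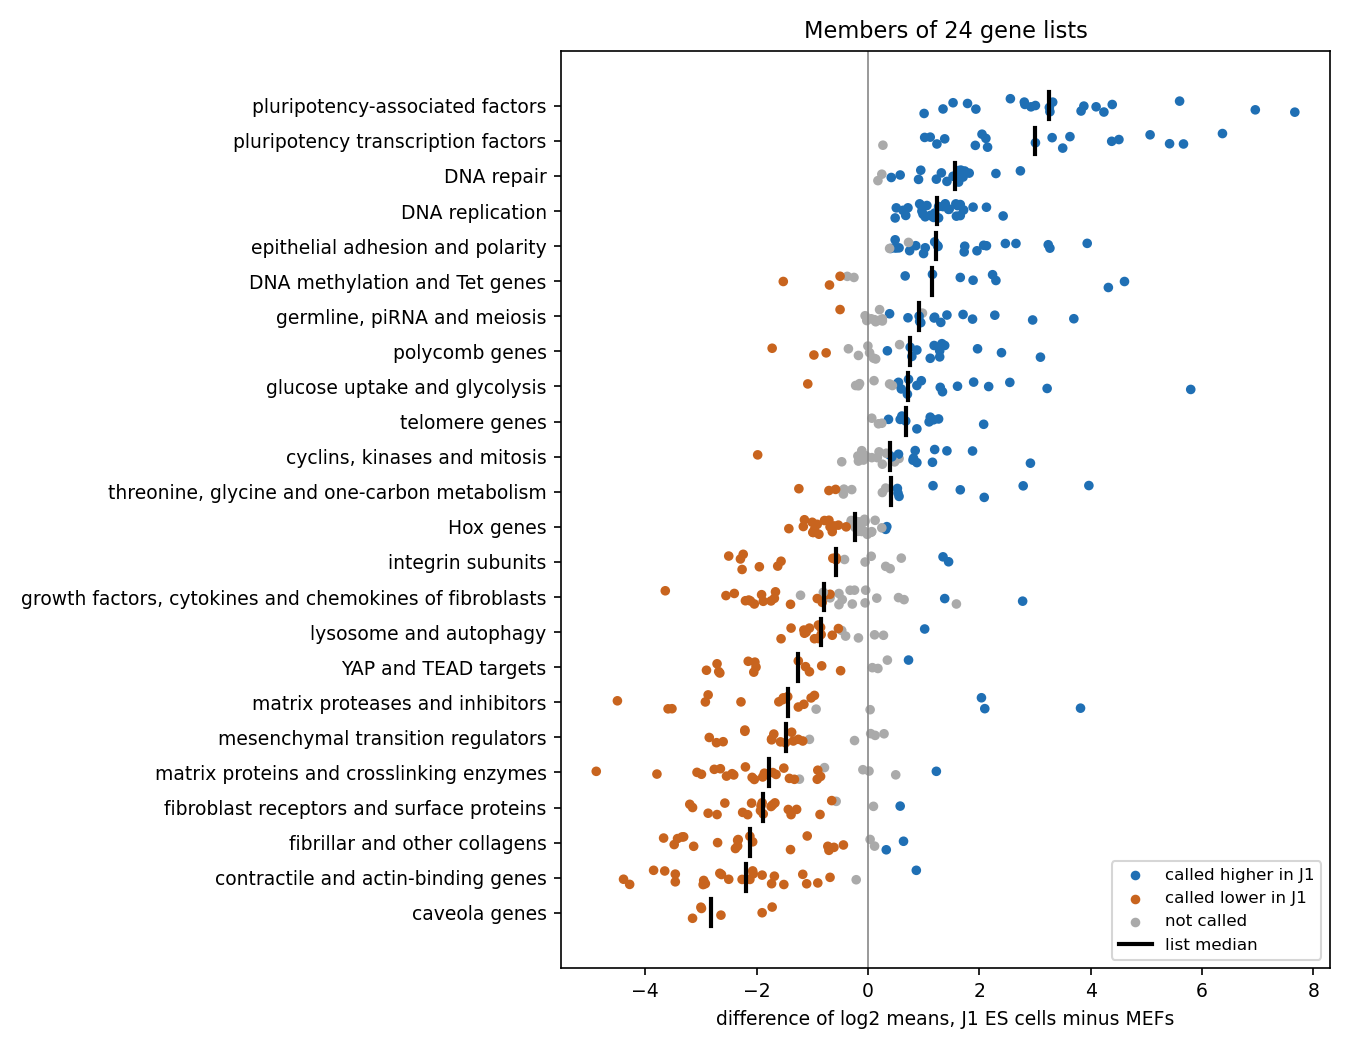
Difference of log2 means, J1 minus MEF (horizontal axis), for each measured member of 24 gene lists, with the list median as a black bar. The lists run from medians of 3.26 and 3.01 for the pluripotency lists to -2.19 for contractile genes and -2.81 for caveola genes.

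In the LIF and STAT3 list, 8 of 14 genes were called higher and 4 lower. Socs3, a feedback inhibitor induced by STAT3, rose by 1.64 ± 0.15, the kinase gene Pim1 by 1.24 ± 0.27 and the LIF receptor gene Lifr by 1.15 ± 0.12. A dimmer second probe set of Socs3 gave 0.64. The co-receptor Il6st (gp130) stood at 6.84, 6.81 and 6.87 in the J1 arrays and 8.77, 8.66 and 9.37 in the MEF arrays, a difference of -2.09 ± 0.26, with no overlap. The kinases Jak1 and Jak2 differed by -1.45 ± 0.16 and -1.31 ± 0.23 and Stat3 itself by -0.87 ± 0.15.

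In the TGF-beta, Nodal and BMP list 8 of 32 genes were called higher and 18 lower. Beside Tdgf1, the Nodal inhibitors Lefty2 and Lefty1 rose by 3.83 ± 0.27 and 2.93 ± 0.27, the ligand Gdf3 by 3.26 ± 0.18 and Nodal by 1.94 ± 0.16. The falls held the TGF-beta ligands Tgfb3 (-3.64 ± 0.28) and Tgfb2 (-2.04 ± 0.18), the BMP target Id3 (-1.71 ± 0.51) and the activin antagonist Fst (-1.68 ± 0.46). Tgfb3 stood at 4.63, 4.31 and 4.22 in the J1 arrays and 8.60, 7.82 and 7.65 in the MEF arrays. Id3 was no longer called without J1 replicate 2 or MEF replicate 2 (-1.36 each). The type II receptor Tgfbr2 differed by -1.38 ± 0.37. In the FGF and ERK list the counts were 7 higher and 5 lower of 23. Fgf4, the autocrine ligand of ES cells, rose by 2.81 ± 0.22, Fgf15 by 2.63 ± 0.17 and the ERK-induced factor genes Etv5 and Etv4 by 2.28 ± 0.12 and 1.43 ± 0.13, while the receptor Fgfr2 fell (-1.14 ± 0.18). Myc, a growth-promoting factor gene often introduced for reprogramming, was lower in J1 cells at 6.32, 4.85 and 5.41 in the J1 arrays and 6.78, 7.28 and 6.38 in the MEF arrays, a difference of -1.29 ± 0.41, whereas its relative Mycn was higher. The 2 groups did not overlap for Myc, although J1 replicate 1 lay close to MEF replicate 3, and the call was lost without J1 replicate 2 (-0.95) or 3 (-1.23) or MEF replicate 2 (-1.05).

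Genes of epithelial adhesion and polarity were higher in J1 cells, with 22 of 24 measured members called higher, none lower, and a median of 1.22. Cdh1, which encodes the adherens junction protein E-cadherin, stood at 8.06, 8.26 and 8.41 in the J1 arrays and 4.15, 4.61 and 4.14 in the MEF arrays, a difference of 3.94 ± 0.19. It too lies on chromosome 8. The surface adhesion molecule Epcam differed by 3.24 ± 0.28, the serine protease inhibitor Spint2 by 3.27 ± 0.25, the tight junction gene Cldn4 by 2.66 ± 0.44 and the epithelial splicing regulator Esrp1 by 2.08 ± 0.22. Many members were dim in both groups: with genes under a mean of 6 in both groups left out, 8 of the 9 members left were called higher. Dsp and Jup, which join junctions to the cytoskeleton, were not called (4.55 in J1 cells, 3.81 in MEFs and 6.48 in J1 cells, 6.10 in MEFs), but Dsp passed without MEF replicate 2 (1.10) and Jup without MEF replicate 1 (0.55). Both also passed with housekeeping centring (0.88 and 0.53), and Dsp with the replicate block (adjusted p 0.0165 in the 6 arrays and 0.00273 in all 18, limma). J1 replicate 1 had the lowest list mean of the J1 arrays, 5.31 beside 5.68 and 5.71, against 3.97 to 4.16 in MEFs. Cdh2, which encodes N-cadherin of mesenchymal cells, moved the other way, at 5.33, 4.68 and 5.10 in the J1 arrays and 6.99, 6.70 and 6.63 in the MEF arrays. A separate list of 4 simple keratins was mixed, with 1 called higher, 1 lower and differences from -0.64 to 0.94. Its means were 4.51, 5.38 and 5.16 in the J1 arrays and 4.67, 4.67 and 4.86 in the MEF arrays. Without J1 replicate 1, 2 of these keratins were called higher, as with housekeeping centring, the 6 arrays alone and the replicate block.

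Among DNA methylation and Tet genes, 8 of 13 were called higher and 3 lower. Dnmt3l, a cofactor without catalytic activity that guides de novo methylation, stood at 7.97, 7.92 and 8.10 in the J1 arrays and 3.29, 3.73 and 3.13 in the MEF arrays, a difference of 4.61 ± 0.18. Tet1, which oxidises methylated cytosine, stood at 8.18, 8.16 and 8.39 in the J1 arrays and 3.69, 4.12 and 3.98 in the MEF arrays, a difference of 4.32 ± 0.19, and 2 further probe sets of the gene gave 4.32 and 4.43. Both genes separated the groups without overlap. The methyltransferases Dnmt3b and Dnmt3a rose by 2.30 ± 0.16 and 1.16 ± 0.15 and the maintenance enzyme Dnmt1 by 0.67 ± 0.18. Tet2 rose by 1.89 ± 0.19, while Tet3 (-0.50 ± 0.14) and the methyl-binding protein gene Mbd2 (-1.52 ± 0.20) fell. A second probe set of Tet3 gave -0.13. Dnmt1 stayed called but at 0.42 without MEF replicate 3, and Tet3 was no longer called without J1 replicate 3 (-0.43) or with housekeeping centring (-0.36).

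Of 23 polycomb genes, which encode subunits of 2 repressive complexes on histones, 13 were called higher and 3 lower. The PRC2 cofactors Jarid2 and Mtf2 led with 3.10 ± 0.15 and 2.40 ± 0.19. The PRC2 core genes Ezh2, Suz12 and Eed rose by 1.29 ± 0.21, 1.29 ± 0.19 and 1.38 ± 0.15, although a dim second probe set of Eed gave -0.14. Subunits of PRC1 went both ways: Cbx7 rose by 1.97 ± 0.15 and Pcgf6 by 1.33 ± 0.17, whereas Bmi1 stood at 5.09, 5.24 and 5.46 in the J1 arrays and 6.79, 7.35 and 6.80 in the MEF arrays, a difference of -1.72 ± 0.24.

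Germline, piRNA and meiosis genes were called higher for 14 of 25 and lower for 1. Tdrd12, a piRNA pathway gene, differed by 3.70 ± 0.25, the synaptonemal complex gene Syce2, on chromosome 8, by 2.96 ± 0.26, the meiotic cohesin Stag3 by 2.28 ± 0.33 and the germ cell helicase Ddx4 by 1.88 ± 0.27. Most other members were dim in both groups, and 3 calls were left when dim genes were left out.

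All 30 measured DNA replication genes were called higher in J1 cells, with a median of 1.24 and a range of 0.49 to 2.43. Cdt1, which loads the replicative helicase, stood at 8.26, 8.76 and 8.52 in the J1 arrays and 6.04, 6.80 and 5.42 in the MEF arrays, a difference of 2.43 ± 0.25. Mcm5, a helicase subunit, stood at 8.72, 8.31 and 8.55 in the J1 arrays and 6.48, 6.86 and 5.85 in the MEF arrays, a difference of 2.13 ± 0.18. Both genes lie on chromosome 8. The other helicase subunits Mcm3, Mcm6, Mcm7, Mcm2 and Mcm4, on other chromosomes, rose by 1.72, 1.66, 1.61, 1.58 and 0.97. The origin recognition gene Orc1 rose by 1.59 ± 0.16 and the sliding clamp Pcna by 0.93 ± 0.22. MEF arrays differed among themselves in this list, with means of 6.05, 6.38 and 5.62, all under the J1 means of 7.21 to 7.33.

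Of the 23 replication genes with a RefSeq promoter (250 bases before to 50 after the start), 8 held a motif of the E2F factors, the regulators of S phase genes. The letters searched were TTTCGCGC or TTTGGCGC on both strands, which may overlap each other, and the motif was chosen after the data were seen. The share was 34.8%, beside 0.84% of all 27025 promoters, 1.17% of those of the genes tested, 3.07% of those at least 2-fold higher in J1 cells and 0.497% of those at least 2-fold lower. The 8 stretches of 30 bases show where the letters lie and what flanks them (RefSeq, GRCm38.p6, read along each gene, motif in capitals).
Cdt1 (chr8:122568035-122568064, plus strand): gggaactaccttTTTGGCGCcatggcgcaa
Mcm3 (chr1:20820263-20820292, minus strand): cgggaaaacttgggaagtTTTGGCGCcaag
Mcm5 (chr8:75109347-75109376, plus strand): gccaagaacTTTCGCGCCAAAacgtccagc
Mcm6 (chr1:128359797-128359826, minus strand): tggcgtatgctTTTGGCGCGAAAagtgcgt
Mcm7 (chr5:138171849-138171878, minus strand): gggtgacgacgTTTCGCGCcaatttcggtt
Orc1 (chr4:108579416-108579445, plus strand): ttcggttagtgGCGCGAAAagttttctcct
Pola1 (chrX:93632275-93632304, minus strand): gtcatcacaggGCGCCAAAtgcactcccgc
Rfc3 (chr5:151651200-151651229, minus strand): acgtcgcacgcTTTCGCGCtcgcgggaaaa
In Mcm5 and Mcm6 matches on the 2 strands overlap, and Mcm6 holds a further match outside the stretch shown. Pola1, the catalytic subunit of DNA polymerase alpha, rose by 1.27 ± 0.24, and Rfc3, a clamp loader subunit, by 0.49 ± 0.17, the smallest rise of the list and the one whose arrays overlapped between groups. The call of Rfc3 was lost without J1 replicate 1 (0.35) or 3 (0.48) or MEF replicate 3 (0.30), and with the replicate number as a block (adjusted p 0.102 in limma).

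DNA repair genes were called higher for 18 of 20 and lower for none, with a median of 1.57. The mismatch repair gene Msh6 rose by 2.74 ± 0.16, the strand break sensor Parp1 by 2.30 ± 0.18, the helicase Blm by 1.82 ± 0.32, and the breast cancer genes Brca2 and Brca1 of homologous recombination by 1.74 ± 0.26 and 1.71 ± 0.21. Telomere genes gave 10 higher of 13. Terf1, which binds telomeric repeats, rose by 2.08 ± 0.20, and Tert, the catalytic subunit of telomerase, by 0.88 ± 0.15 from a dim level (4.54, 4.99 and 4.97 in the J1 arrays and 3.93, 4.0 and 3.93 in the MEF arrays).

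Cell cycle regulators were less uniform, with 12 of 26 called higher and 1 lower. The transcription factor gene Mybl2 rose by 2.92 ± 0.20, the G1/S cyclin Ccne1 by 1.88 ± 0.20, and the spindle checkpoint kinase Bub1b by 1.42 ± 0.24. Cyclin D2 (Ccnd2) fell, at 9.41, 7.83 and 8.50 in the J1 arrays and 10.63, 10.19 and 10.85 in the MEF arrays, a difference of -1.98 ± 0.42. The proliferation marker Mki67 was not called (7.0 in J1 cells, 7.17 in MEFs). Among CDK inhibitors and p53 targets, 3 of 19 were called higher and 5 lower. Cdkn2b and Cdkn2c, inhibitors of the cyclin D kinases, fell (-1.48 ± 0.38 and -1.30 ± 0.15). Cdkn2a, the Ink4a/Arf locus, was dim and not called (4.81, 4.80 and 4.81 in the J1 arrays and 4.92, 4.06 and 5.28 in the MEF arrays).

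Glucose uptake and glycolysis genes were called higher for 15 of 22 and lower for 1, with a median of 0.72. Slc2a3 stood at 10.05, 10.99 and 10.94 in the J1 arrays and 4.56, 4.94 and 5.10 in the MEF arrays, and the ubiquitous glucose transporter Slc2a1 differed by 1.90 ± 0.29. Aldoc, an aldolase, rose by 3.22 ± 0.67, Pdk1, which restrains entry of pyruvate into mitochondria, by 2.55 ± 0.28, and the lactate dehydrogenase subunit Ldhb by 2.17 ± 0.24. The abundant enzymes Aldoa, Ldha and Pkm rose by less (0.71, 0.60 and 0.55). Genes of threonine, glycine and one-carbon metabolism gave 8 higher and 3 lower of 16. Gldc and Amt, subunits of the mitochondrial glycine cleavage system, rose by 3.97 ± 0.18 and 2.79 ± 0.16. The mitochondrial folate enzyme Mthfd2 (-1.24 ± 0.16) and Phgdh, the first enzyme of serine synthesis (-0.70 ± 0.19), fell.

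The largest falls were matrix, contractile and secreted genes of fibroblasts. Aspn, a small proteoglycan that binds collagen, stood at 3.64, 3.37 and 3.51 in the J1 arrays and 8.23, 7.84 and 9.09 in the MEF arrays, a difference of -4.88 ± 0.49 (adjusted p 6.42e-07 in limma). Adamts5, a protease of aggregating proteoglycans, stood at 4.11, 3.90 and 4.09 in the J1 arrays and 8.60, 7.98 and 9.02 in the MEF arrays, a difference of -4.50 ± 0.41. Ccdc80, a matrix protein, differed by -4.43 ± 0.42, the growth factor Ptn by -3.98 ± 0.53, and Rgs4, a brake on G protein signalling, by -3.85 ± 0.17. Anxa3, a membrane-binding annexin, and Ccn4, a matricellular protein, differed by -3.65 ± 0.36 and -3.68 ± 0.46. For Aspn, Adamts5 and Rgs4 the J1 arrays lay close together, and the MEF arrays spread more widely.

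**Figure D3:**
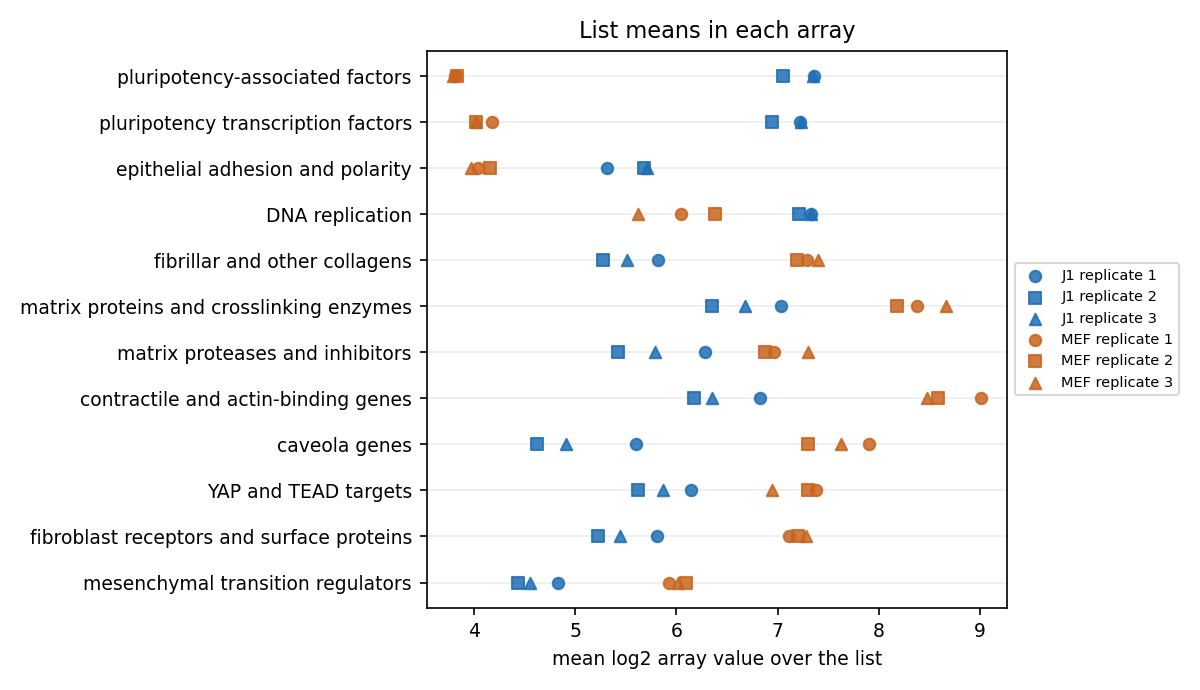
Mean log2 array value over 12 gene lists (horizontal axis) in each of the 6 arrays. J1 replicate 1 (blue circle) lies nearest the MEF arrays in the 8 fibroblast lists, for contractile genes at 6.83 beside 6.17 and 6.35, with MEF means of 8.48 to 9.01.

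Collagens were called lower for 19 of 23 and higher for 2, with a median of -2.12. Col1a1, of the main fibrillar collagen, stood at 9.15, 7.90 and 8.46 in the J1 arrays and 11.84, 11.76 and 11.83 in the MEF arrays, a difference of -3.31 ± 0.51, and at -3.63 without J1 replicate 1. Its partner Col1a2 differed by -3.13 ± 0.53, Col3a1 by -3.34 ± 0.58 and Col5a2 by -3.67 ± 0.58. The J1 arrays held clear signal for the first 2 of these. Col12a1 and Col6a3, of collagens that associate with fibrils and form microfibrils, differed by -3.48 ± 0.62 and -3.42 ± 0.30. The basement membrane chains Col4a1 and Col4a2 also fell (-2.38 ± 0.24 and -2.34 ± 0.34). Col18a1, of basement membranes, rose by 0.64 ± 0.11.

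Other matrix proteins and crosslinking enzymes were lower for 22 of 28 and higher for 1. The elastic fibre protein Fbln5 fell (-3.79 ± 0.56), as did Ogn (-3.07 ± 0.26), Postn, a matricellular protein (-2.99 ± 0.50), the collagen chaperone Serpinh1 (-2.76 ± 0.40) and the crosslinking enzyme Lox (-2.41 ± 0.31). Fibronectin (Fn1) was at 9.64, 9.29 and 9.67 in the J1 arrays and 11.42, 10.66 and 11.63 in the MEF arrays, a difference of -1.71 ± 0.26. The counts were 24 without J1 replicate 1. Tnc, a matrix protein of wounds and embryos, was not called (8.52 in J1 cells, 9.74 in MEFs) except without J1 replicate 1 (-1.78), in a fit of the 6 arrays alone and with the replicate block in 6 or 18 arrays (-1.23 each).

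The other direction was taken by 4 matrix genes that fibroblasts commonly make. Mmp3, the protease stromelysin, stood at 9.80, 7.74 and 8.92 in the J1 arrays and 4.16, 5.45 and 5.38 in the MEF arrays, a difference of 3.82 ± 0.56. Mmp13 and Mmp10, a collagenase and a second stromelysin, rose by 2.10 ± 0.52 and 2.04 ± 0.23. Dcn, the proteoglycan decorin, stood at 9.64, 8.37 and 9.24 in the J1 arrays and 7.84, 7.61 and 8.11 in the MEF arrays, a difference of 1.23 ± 0.40, which was no longer called without J1 replicate 1 (0.95) or 3 (1.15) or MEF replicate 1 (1.22) or 2 (1.11). The other feeder-grown groups had levels like those of J1 cells: Mmp3 averaged 8.54, 8.65, 8.72 and 8.40 in EOS3F-28, EOS3F-29, the 2i-converted line and EOS3F-24, and Dcn 9.20, 9.62, 9.34 and 9.28, against 5.0 and 7.85 in MEFs. MEFs were the one group whose protocol names no feeders, and the part of feeder RNA in these values was not tested. Among all 19 proteases and inhibitors the counts were 14 lower and 3 higher. Adamts1 and Adamts12 fell (-3.59 ± 0.40 and -3.52 ± 0.33), as did Mmp14, a membrane-bound collagenase (-2.92 ± 0.36), and the inhibitor Timp3 (-2.87 ± 0.34).

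**Figure D4:**
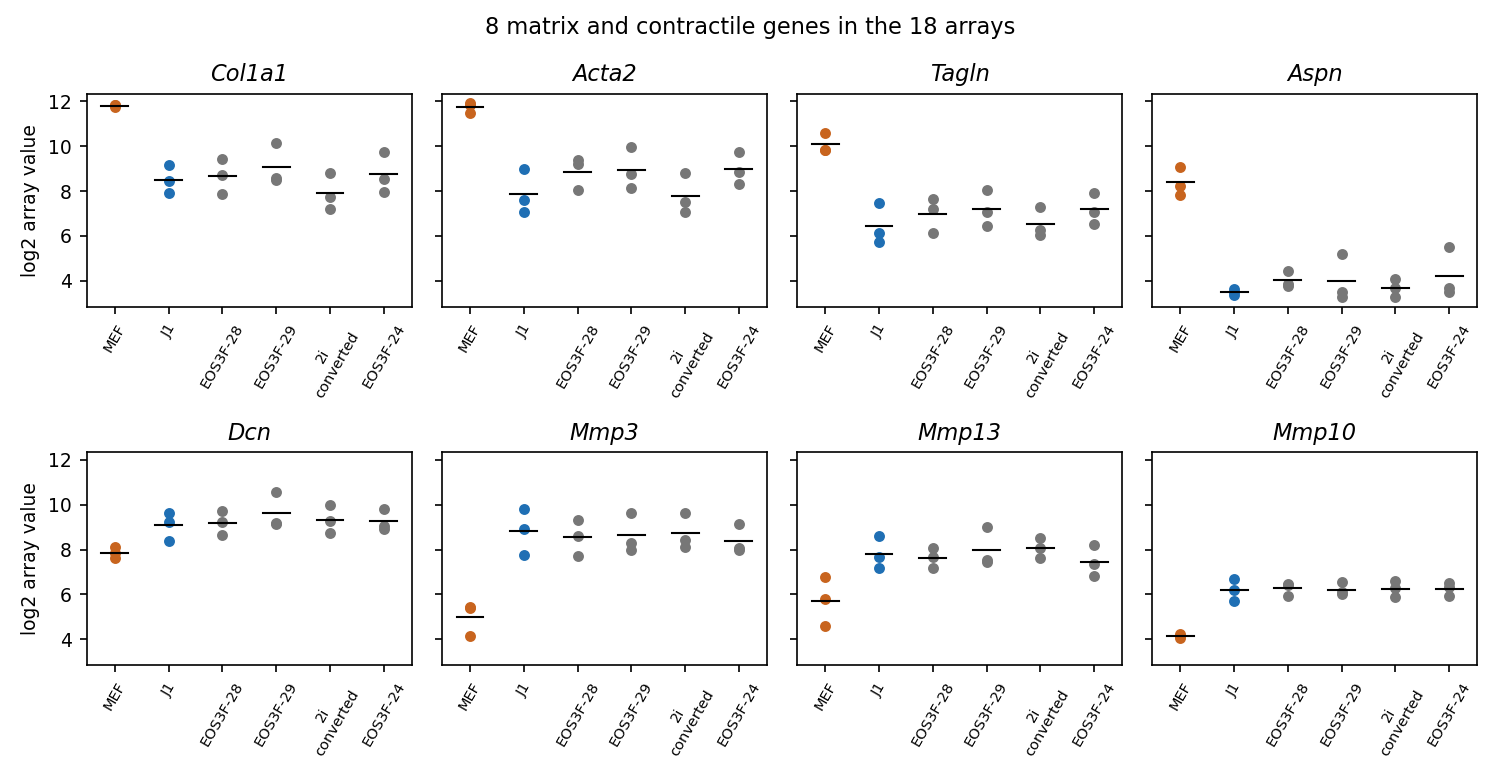
Log2 array values of 8 matrix and contractile genes in the 18 arrays by group, with the group mean as a bar. Col1a1, Acta2, Tagln and Aspn are highest in MEFs, whereas Dcn, Mmp3, Mmp13 and Mmp10 have lower means in MEFs than in every feeder-grown group (for Mmp3 5.0 against 8.40 to 8.82).

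Contractile and actin-binding genes were called lower for 24 of 26 and higher for 1, with a median of -2.19. Acta2, smooth muscle actin of stress fibres, stood at 9.0, 7.05 and 7.62 in the J1 arrays and 11.92, 11.47 and 11.83 in the MEF arrays, a difference of -3.85 ± 0.55, and at -4.41 without J1 replicate 1. Tagln, the actin crosslinker SM22, stood at 7.49, 5.71 and 6.13 in the J1 arrays and 10.61, 9.82 and 9.85 in the MEF arrays, a difference of -3.65 ± 0.50, and at -4.17 without that array. The smooth muscle actin Actg2 and the myosin light chain Myl9 differed by -4.39 ± 0.37 and -4.28 ± 0.52. The calponins Cnn1 and Cnn2 fell (-3.46 ± 0.25 and -3.46 ± 0.35), as did the tropomyosins Tpm1 and Tpm2 (-2.96 ± 0.36 and -2.92 ± 0.31) and vinculin (Vcl, -2.50 ± 0.23). Vim, the intermediate filament vimentin, fell by less and stayed bright in J1 cells (10.63, 9.73 and 10.11 in the J1 arrays and 11.76, 11.58 and 11.66 in the MEF arrays). Csrp2, a LIM protein, rose by 0.87 ± 0.18.

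The promoters of 3 of the 22 contractile genes with a RefSeq promoter (13.6%) held a CArG box, the element of serum response factor. It was searched by its standard consensus, which reads alike on both strands. The share was 1.59% of all promoters, 2.98% of those of genes at least 2-fold lower in J1 cells and 1.02% of those at least 2-fold higher. All 3 sites are shown, since their genes were each called lower (RefSeq, GRCm38.p6, box in capitals).
Cnn2 (chr10:79988534-79988563, plus strand): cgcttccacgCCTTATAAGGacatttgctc
Myl9 (chr2:156775293-156775322, plus strand): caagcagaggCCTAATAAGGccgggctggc
Vcl (chr14:20929161-20929190, plus strand): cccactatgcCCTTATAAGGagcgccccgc
The boxes begin at positions -56, -161 and -227 from the start.

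All 6 caveola genes, which coat small pits of the plasma membrane, were lower. Cav1, the main coat protein, stood at 5.74, 4.97 and 5.52 in the J1 arrays and 8.62, 8.14 and 8.42 in the MEF arrays, a difference of -2.99 ± 0.35, and Ehd2 and Cavin2 differed by -3.15 ± 0.47 and -3.0 ± 0.51. A list of targets of YAP and TEAD, which report cell spreading and tension, also held genes of TEAD factors themselves. Its members were lower for 13 of 17 and higher for 1. Ccn2 and Ccn1, secreted matricellular targets, fell (-2.66 ± 0.30 and -2.15 ± 0.30), as did Crim1 (-2.90 ± 0.29) and Ankrd1 (-2.68 ± 0.26). The 1 rise was of a factor gene, Tead4 (0.73 ± 0.15), while the factor gene Tead1 fell (-1.25 ± 0.20).

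Integrin subunits were lower for 10 of 18 and higher for 2. The collagen-binding subunits Itga11 and Itga1 fell (-2.50 ± 0.34 and -2.24 ± 0.22), with the fibronectin and vitronectin receptors Itga5 and Itgav (-2.26 ± 0.26 and -2.29 ± 0.23) and the shared Itgb1 (-1.62 ± 0.27). The laminin receptor subunit Itga6 rose by 1.45 ± 0.22. Of 23 fibroblast receptors and surface proteins 20 were lower and 1 higher. Ddr2, a collagen receptor kinase, differed by -3.20 ± 0.35 and Pdgfrb, a PDGF receptor, by -3.15 ± 0.41. Thy1, a common surface marker of fibroblasts, stood at 6.73, 6.20 and 6.36 in the J1 arrays and 8.47, 8.17 and 8.45 in the MEF arrays, a difference of -1.93 ± 0.35. Nt5e, another surface marker, rose by 0.58 ± 0.19, a call lost without J1 replicate 1 (0.52) or 3 (0.55) or MEF replicate 1 (0.43) or 3 (0.55).

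Mesenchymal transcription regulators were lower for 14 of 19, and none was higher. Tbx15 and Snai2 fell (-2.85 ± 0.38 and -2.72 ± 0.36), as did Runx1 (-2.60 ± 0.27), Zeb2 (-2.21 ± 0.30) and Prrx1 (-2.21 ± 0.38). Snai2 stood at 5.43, 4.34 and 4.85 in the J1 arrays and 7.48, 7.72 and 7.58 in the MEF arrays. Twist2 was not called (6.04 in J1 cells, 7.09 in MEFs) although its relative Twist1 was (-1.69 ± 0.28). Twist2 passed with the replicate block over 18 arrays (-1.05, adjusted p 0.015 in limma). Hox genes, which record position along the body axis, were lower for 16 of 37 and higher for 2, with a median of -0.24. Hoxc8, Hoxc6, Hoxc10 and Hoxa5 had the largest falls, of which Hoxc8 stood at 4.75, 4.50 and 4.26 in the J1 arrays and 5.81, 5.78 and 6.17 in the MEF arrays. Every Hox gene had a mean under 6 in both groups, so none was tested when dim genes were left out. Of 17 other homeobox and limb genes 7 were lower, led by Meis1 and Meis2 (-1.98 ± 0.23 and -1.46 ± 0.18).

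Secreted growth factors and cytokines of fibroblasts were lower for 17 of 34 and higher for 2. Insulin-like growth factor binding proteins went both ways: Igfbp5 and Igfbp6 fell (-2.55 ± 0.45 and -2.40 ± 0.20), while Igfbp2 rose by 2.78 ± 0.40. The chemokine Cxcl12 fell (-2.20 ± 0.35). The chemokine Ccl5 rose by 1.38 ± 0.23, and its means in the other feeder-grown groups were 5.32 to 5.91 against 4.15 in MEFs. J1 replicate 1 had a list mean of 6.09 beside 5.25 and 5.57, and MEFs had 6.38 to 6.57.

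Imprinted genes, expressed from 1 parental copy, were higher for 5 of 22 and lower for 10. Phlda2, a placental growth regulator, rose by 3.93 ± 0.19 and Peg10 by 1.37 ± 0.25. Igf2, a fetal growth factor, stood at 4.84, 4.85 and 4.81 in the J1 arrays and 7.96, 8.76 and 7.35 in the MEF arrays, a difference of -3.18 ± 0.28. Its groups did not overlap. Grb10, an adaptor that restrains insulin signalling, and Ndn fell (-2.69 ± 0.18 and -2.0 ± 0.34).

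In the nuclear lamina list 6 of 14 genes were higher and 5 lower. Lmna, the A-type lamin of differentiated cells, stood at 6.90, 5.51 and 5.98 in the J1 arrays and 8.41, 8.19 and 8.24 in the MEF arrays, a difference of -2.15 ± 0.38, whereas the B-type lamins Lmnb1 and Lmnb2 rose by 1.25 ± 0.21 and 1.05 ± 0.14 and the lamin B receptor Lbr by 1.41 ± 0.21. Splicing regulators were higher for 4 of 17 and lower for 7. Mbnl1 and Mbnl2, muscleblind proteins that favour exons of differentiated cells, fell (-2.62 ± 0.34 and -2.13 ± 0.18). Lysosome and autophagy genes were lower for 13 of 19 and higher for 1, with a median of -0.85. Lamp2, a lysosomal membrane protein, fell (-1.56 ± 0.23) and Tfeb, a regulator of lysosome genes, rose by 1.02 ± 0.10.

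Stem cell surface genes were higher for 7 of 19 and lower for 5. Kit, a receptor kinase, rose by 2.70 ± 0.30, Alpl, the alkaline phosphatase used to stain ES colonies, by 2.35 ± 0.18, and Pecam1 by 2.20 ± 0.34. The heparan sulfate proteoglycans Gpc4 and Sdc2 fell (-2.71 ± 0.38 and -2.56 ± 0.28).

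Both labels were checked against markers. The J1 arrays had means of 6.94 to 7.23 over the pluripotency factors against 4.02 to 4.18 in MEFs. Over the fibroblast receptors and surface proteins the MEF arrays had means of 7.11 to 7.28, against 5.22 to 5.81 in J1 cells. Several other lineages had lower list means in J1 cells than these fibroblast markers. They were 4.6 to 4.64 for primitive endoderm, 3.91 to 4.23 for trophoblast, 3.74 to 3.89 for mesendoderm and 4.19 to 4.35 for neural genes. The mesendoderm means were still above those of MEFs (3.56 to 3.66), with 3 of 9 members called higher and none lower. Primitive endoderm markers gave 3 higher and 5 lower of 16, and neural markers 1 higher and 3 lower of 10. Trophoblast markers gave 3 of 11 called higher and 1 lower, with a median of 0.04, led by Tfap2c (1.95 ± 0.20), which ES and germ cells also express. Genes of neural crest, neurons and glia were higher in J1 cells, with 5 of 7 called higher and none lower. Their list means were 4.99 to 5.10 in J1 cells against 4.05 to 4.25 in MEFs. Of these Stmn2, Gap43 and Elavl3, genes of neurons, rose by 2.78, 1.39 and 1.02. Endothelial markers gave 4 higher and 2 lower of 10, from Pecam1 (2.20 ± 0.34), which ES cells also express, to Emcn (-1.31 ± 0.22). Muscle and cartilage markers were lower in J1 cells than in MEFs for 6 of 12, led by the sarcomeric actins Actc1 (4.57, 4.72 and 4.54 in the J1 arrays and 7.45, 8.82 and 5.79 in the MEF arrays) and Acta1 (-2.30 ± 0.22). The MEF list means were 4.86, 5.36 and 4.41, against 4.08 to 4.13 in J1 cells. Macrophage and blood markers went both ways, with 2 higher and 3 lower of 12 and a median of -0.15. Lyz2 was lower in J1 cells (3.33, 3.32 and 3.23 in the J1 arrays and 5.02, 4.55 and 6.22 in the MEF arrays), whereas Laptm5 was higher (6.17, 6.45 and 6.26 in the J1 arrays and 4.11, 4.6 and 5.0 in the MEF arrays), as was Cd68 (1.31 ± 0.46). The call of Cd68 was lost without J1 replicate 2 (0.96) or 3 (1.26) or MEF replicate 1 (1.10) or 2 (1.34) and with a trended robust variance (adjusted p 0.0647 in limma). In this list the MEF list means were 3.77, 3.68 and 4.29. What part these cells had in the differences above was not tested.

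J1 cells were also set against the mean of the 2 fully reprogrammed lines for the 30 genes with the largest differences from MEFs. No MEF value enters the difference itself, but the genes were chosen on the same J1 arrays and the standard errors come from the same model of all 18 arrays, so it is no independent test. Over all genes, 949 (4.76%) were called in it. Of the 15 rises, 5 were higher in J1 cells than in the full iPS lines: Dppa5a by 1.5 ± 0.25, Triml2 by 1.5 ± 0.14, Esrrb by 1.11 ± 0.15, Zfp42 by 1.05 ± 0.19 and Trh by 0.81 ± 0.21. The adjusted p for these ranged from 5.27e-06 for Triml2 to 0.0335 for Trh in limma. Triml2 and Zfp42 lie on chromosome 8. Pou5f1 differed by -0.06 ± 0.14 and Nanog by 0.68 ± 0.19 (adjusted p 0.0535 in limma), neither called. For Pou5f1 the 2 lines lay on either side of J1 cells, with means of 10.04 in EOS3F-28 and 9.15 in EOS3F-29 against 9.53. None of the 15 falls was called between J1 cells and the full iPS lines, and their differences lay between -1.02 (Acta2) and -0.26 (Fbln5 and Adamts1).

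**Figure D5:**
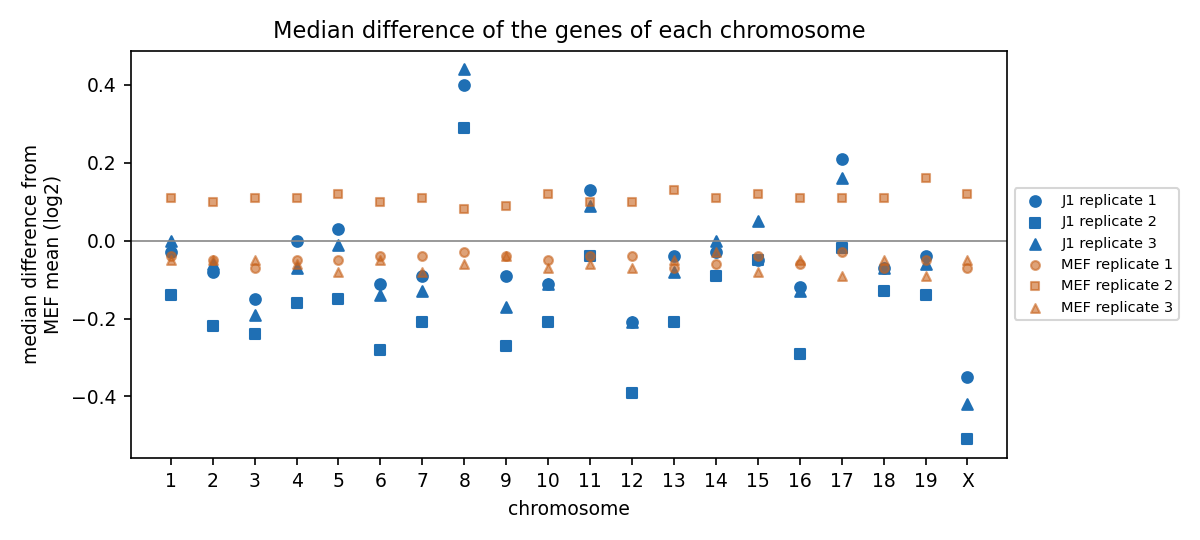
Median difference from the MEF mean (vertical axis, log2) over the genes of each chromosome with a mean of at least 6 in J1 cells or MEFs, for each of the 6 arrays. Chromosome 8 stands at 0.29 to 0.44 in the J1 arrays, and chromosome X at -0.51 to -0.35.

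Genes of chromosome 8 were shifted together. Over 299 chromosome 8 genes with a mean of at least 6 in either group, the median difference was 0.40, with 151 called higher and 62 lower, whereas the other autosomes had medians of -0.23 to 0.13. The J1 arrays gave 0.40, 0.29 and 0.44 for chromosome 8 and the MEF arrays -0.03, 0.08 and -0.06. Measured from the MEF mean in the same way, the 2i-converted line stood at 0.27, close to the lowest J1 array, the partially reprogrammed line at 0.04 and the full iPS lines at -0.08. The median of J1 minus the full iPS lines was 0.46. The copy number of the chromosome was not measured. The rises of Zfp42 (4.38), Triml2 (4.39), Cdh1 (3.94), Cdt1 (2.43) and Mcm5 (2.13) were several times this median. Over 159 genes of chromosome X with such a mean the median was -0.45, with 34 higher and 80 lower. The shares over all genes are not the background for these counts of brighter genes on chromosomes 8 and X. In the fit without dim genes, 1567 of 5048 genes were called higher and 1906 lower. Xist, the RNA of the inactive X, stood at 4.85, 4.56 and 4.51 in the J1 arrays and 6.89, 7.13 and 6.70 in the MEF arrays, a difference of -2.26 ± 0.23. The Y-linked gene Eif2s3y was measured in both groups and was not called (6.36 in J1 cells, 5.98 in MEFs) except with housekeeping centring (0.53) and in a fit of the 6 arrays alone (0.38). Of 7 sex-linked genes 3 were called lower and none higher: Xist, the Y-linked Kdm5d (3.18, 3.04 and 3.12 in the J1 arrays and 4.40, 4.54 and 4.33 in the MEF arrays) and the dim Usp9y (-0.31 ± 0.09). The call of Usp9y was lost without J1 replicate 2 (-0.22) or MEF replicate 1 (-0.25), with housekeeping centring (-0.16) and in the 6 arrays alone, with or without the replicate block (-0.31).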

How the data were processed

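RNA of the 18 samples was extracted with a column kit and labelled by a whole-transcript assay, per the labels' protocols. The authors deposited log2 values per probe set from RMA, as the submitters' processing notes name it, without a version. RMA equalises the distributions of the arrays and so removes any global shift, and it compresses differences near background.

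The value table holds 34760 probe sets, of which 21640 had 1 gene symbol in the platform annotation, 1321 several and 11799 none. Each gene was represented by its brightest probe set (by the mean of the 18 arrays), which gave 19937 genes, 954 of them with over 1 probe set. Group means were fitted over the 18 arrays with lmFit and eBayes in limma 3.58.1 (R 4.3.3), without a filter, and p-values were adjusted over all 19937 genes (Benjamini-Hochberg). The number of arrays, 3 in each group, limits precision. A two-sided exact permutation test of 3 against 3 cannot go below 0.1, so it was not used. On simulated data for J1 against MEF with 200 changed genes among 19937, the test recovered 58.2% of changes of 1.5-fold, 95% of those of 2-fold and 99.8% of those of 4-fold, and 5.14% of calls were false. The cut-off of the adjustment depends on the share of changed genes, and 7585 genes were called in the data. These percentages therefore hold for the simulated setting only. Same-numbered J1 and MEF arrays did not deviate together (correlations of -0.00349, -0.109 and -0.0553), so the numbers were not used as pairs between them. Those of the feeder-grown groups did so in part, and a block over all 18 arrays was added after the data were seen.

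The 51 gene lists hold 1033 genes, of which 936 were measured. Members and lists were chosen with earlier results of these data known, so a list's direction is not independent evidence. The genes named are the 15 largest rises and 15 largest falls that were called, at least 2-fold and without overlap between arrays (predicted or clone-named symbols left out), the leading called members of each list, and a fixed set of marker genes. Vcl, Fn1, Pola1, Rfc3 and other members outside that rule were named after their values were seen. Cdkn1a and Tdh, of the fixed set, were not analysed here. Promoters came from RefSeq (GRCm38.p6), at the most upstream start of a gene. Alternatives were other normalization or centring, only the 6 arrays, trended robust variances, the mean of probe sets, all probe sets, dim genes left out (means under 6 in both groups), the replicate block, each array left out, and a limma test against a 2-fold difference.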

Additional observations from a re-analysis of the deposited data

How the results depend on the processing

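No gene called in the main analysis was called in the opposite direction under any alternative except 2 with the mean of probe sets. The number of called genes (7585) ranged from 6410 to 7462 when 1 array was left out, and was 3473 without dim genes (1567 higher and 1906 lower, 569 of them at least 2-fold higher) and 644 in the test against a 2-fold difference. Fewer genes enter the first, and the second asks for more than a difference from 0. The numbers of the arrays share no source in the labels, and with the replicate block 6374 genes were called (3268 higher, 3106 lower). The block over all 18 arrays, chosen after seeing the data, gave 8084 (4428 higher, 3656 lower), of which 7526 were among the 7585. Without dim genes, 3 of the 4 primed epiblast and 8 of the 9 epithelial members left were called higher. Members called higher became 3 for germline, 6 for telomere, 5 for one-carbon, 4 for FGF, 5 for interferon and 4 for stem cell surface genes. Of the 7 integrins left 5 were called lower, and no Hox gene was left to test. Members called lower became 1 for other homeobox, 3 for CDK inhibitor and 4 for apoptosis genes. Dim members are not tested in this setting, so these counts cannot be set directly against those of the full lists. Housekeeping centring gave 4 lower for other homeobox and 3 for CDK inhibitor genes, and cyclic loess gave 10 lower for transporters. Without MEF replicate 1, interferon genes called higher became 7 (of 11) and CDK inhibitor genes called lower 3 (of 5), and the cause was not tested. Over single arrays left out, the ranges were 7 to 12 and 3 to 4. With 1 array left out, the uncalled differences of Cdkn2a and Mki67 ran from -0.29 to 0.31 and from -0.48 to 0.03. With 3 arrays a group and RMA's compression of dim signal, small differences near background are the least certain.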

Other observations

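Interferon-induced genes were called higher in J1 cells for 11 of 27 measured members and lower for 4, beside 20.6% and 17.5% of all genes. Ifitm1, a membrane protein also known from germ cells, stood at 8.50, 8.94 and 9.08 in the J1 arrays and 5.39, 6.03 and 5.57 in the MEF arrays, a difference of 3.17 ± 0.25, and its second probe set gave 3.86. Bst2, a tether of budding virus, rose by 1.99 ± 0.24, the interferon regulator Irf7 by 1.91 ± 0.29 and Ifit3 by 1.74 ± 0.57. Ifit3 was no longer called without J1 replicate 1 (1.23) or 3 (1.66) or MEF replicate 1 (1.62), or with a trended robust variance (adjusted p 0.0547 in limma). The list mean was highest in J1 replicate 1 (5.76, beside 5.16 and 5.49), and 5.48 to 5.70 in the other feeder-grown groups against 4.91 to 5.29 in MEFs. Tlr4, a receptor of bacterial lipopolysaccharide, fell (-1.43 ± 0.21). Saa3, an acute phase gene, averaged 7.20 in J1 cells, 7.44 to 9.80 in the other feeder-grown groups and 3.75 in MEFs.

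Apoptosis regulators were lower for 8 of 18 and higher for 3. The initiator caspase gene Casp8 stood at 4.78, 4.35 and 4.74 in the J1 arrays and 6.71, 6.59 and 6.75 in the MEF arrays, a difference of -2.06 ± 0.23, and Casp12 differed by -2.16 ± 0.30. Among BAF chromatin remodelling subunits 6 of 22 were higher and 6 lower: Smarcd1 rose by 1.44 ± 0.13, while Smarcc2 (-1.08 ± 0.18) and Smarca2 (-0.93 ± 0.20) fell. Transporter genes gave 5 higher and 6 lower of 18, with differences from -2.02 to 1.76. Slc7a3, a cationic amino acid carrier, rose by 1.48 ± 0.21, and the cystine carrier Slc7a11 had the largest fall (-2.02 ± 0.35). The growth-cone gene Stmn2 rose by 2.78 ± 0.18 and Gap43 by 1.39 ± 0.21. Stmn2 averaged 7.43 to 9.70 in the other feeder-grown groups.

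Of 56 microRNA genes 4 were higher and 10 lower, shares near or below those of all genes, and nearly all were dim on this array, which does not measure mature microRNAs.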
